A study of Mus musculus with 3 samples.

Results

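Ribosome biogenesis and nucleolar genes were followed in 4T1 cells, a mouse mammary carcinoma line, across 3 culture conditions. The set held 35 genes, chosen by name for their known work in the nucleolus, of 18193 named genes on the array. Earlier results of these data were known when they were chosen. Every probe set annotated to one of these genes alone was used, which gave 71 probe sets. All 3 groups were 4T1 cells grown in RPMI-1640 with 10% FBS as the base medium, and RNA was hybridised to Affymetrix Mouse Genome 430 2.0 arrays, 1 array per group. The regular-medium cells were the control, and the labels give no culture time for them. The conditioned-medium cells were kept for 1 week in MSC-conditioned medium, MSC being the common short form for mesenchymal stem (stromal) cells. The co-culture cells shared their dish with MSCs, in contact, over 1 week before they were isolated from them. The labels say neither where the MSCs came from nor how the isolation was done, and 4T1 is a single established line.

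Ribosomes are made mainly in the nucleolus. RNA polymerase I transcribes the ribosomal DNA into a long precursor, small nucleolar RNA-protein particles (snoRNPs) guide its chemical modification, and assembly factors cleave and fold it into the precursors of the small and the large subunit. The demand for ribosomes is high in growing tumour cells, and the transcription factor MYC is a known activator of many of these genes.

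Each value is a MAS5 signal, a linear brightness that combines the probes of a probe set. Signals under 42.4, the 40th percentile of all signals, were set to that value, and a probe set that reached 149.3, the 60th percentile, on at least 1 array is called bright. The brightest probe set of a gene stood for it, and the gene is called measured when that probe set was bright. All 35 genes were measured and were bright on all 3 arrays, and of their 71 probe sets 67 were bright. The arrays had no replicates, so no difference has a replicate error or a test, and each compares 2 arrays only. The signals of 2 different probe sets are not comparable as levels, so comparisons run within a probe set. In a bulk sample, less RNA per cell and a smaller share of cells that express a gene cannot be told apart.

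The 3 arrays were scaled alike, with trimmed mean signals of 497.7 to 498.0. Of 10 epithelial markers of 4T1 identity, 9 were bright on every array. Of 13 MSC and fibroblast markers on the array, 3 were bright on the regular-medium array, 4 on that of conditioned medium and 6 on that of co-culture. Their summed signals were 4215, 4564 and 7259 in the same order. These sums came mostly from Postn, Eng and Nt5e, which were bright in regular medium too, and do not measure MSC content. On their brightest probe sets, the 6 bright ones all had their highest signal in co-culture. Postn, which encodes the matrix protein periostin, had 765.6 in regular medium, 949.5 with conditioned medium and 1803 in co-culture. Eng and Nt5e, surface markers of MSCs, had 937.8 and 2157 in regular medium and 1476 and 3186 in co-culture. The other bright probe set of Nt5e ran the other way, with a log2 difference of -0.72 between co-culture and regular medium. Bgn, Col1a2 and Pdgfra, not bright in regular medium at 12.3, 101.8 and 101.3, had 181.5, 188.2 and 187.5 in co-culture. The other 7 were bright on no array. Col1a1, Dcn, Mgp, Pdgfrb and Thy1 lay at or below the floor of 42.4 on all 3 arrays, and Col3a1 and Lum had 45.7 and 43.8 in co-culture against 51.6 and 16.6 in regular medium. Of 6 leukocyte markers 2 or 3 were bright on each array, and of 4 endothelial markers 1 was. The part of carried-over MSC RNA in the differences below was not tested.

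In co-culture most of the 35 genes lay slightly below regular medium, and none lay as much as 2-fold away. The median log2 difference was -0.19 (interquartile range over genes -0.31 to -0.03), beside 0.07 (-0.26 to 0.42) over all 9452 measured genes. Signals were lower in co-culture for 28 genes and higher for 7, so 80% were lower, whereas 44.0% of all measured genes were. The same 28 genes had their lowest signal of the 3 arrays in co-culture, an order that 38.8% of measured genes showed. The other 7 had their highest signal there, as did 50.7% of measured genes. The differences ran from -0.68 for Wdr74 to 0.47 for Ubtf. Under quantile normalization and under scaling to the median of bright probe sets, 28 members were again lower, and no member changed sides.

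Differences of at least 1.5-fold were few. Wdr74 and Ltv1 were lower by that much in co-culture than in regular medium and no member was higher, so 2 of 35 were called, or 5.71%. Over all genes tested 9.86% were at least 1.5-fold lower and 16.9% higher. On the brightest probe sets the share of members called lower thus did not exceed the background. At 2-fold the background was 2.76% lower and 5.81% higher, and no member was called. The count depends on the probe set that stands for a gene. The second-brightest was put in its place where a gene had more than 1 bright probe set, and other genes kept their brightest. That gave 9 members (25.7%) at least 1.5-fold lower and 1 (2.86%) higher, beside 14.4% and 16.3% of all genes. The share of members called lower then exceeded that of all genes. With the median of the bright probe sets 5 members (14.3%) were called lower, beside 11.1% of all genes. On their brightest probe sets the 6 bright MSC and fibroblast markers lay in the other direction. Of these, 3 passed the limit for bright only on arrays with MSC exposure, so no median is given for that list. The 9 bright epithelial markers, bright on all 3 arrays, had a median log2 difference of 0.38, with 8 higher in co-culture. Krt14 was the exception, 2.77-fold lower, with 1218 in regular medium and 439.1 in co-culture. Krt5, the marker that was not bright, had 82.7 and 32.5.

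**Figure D1:**
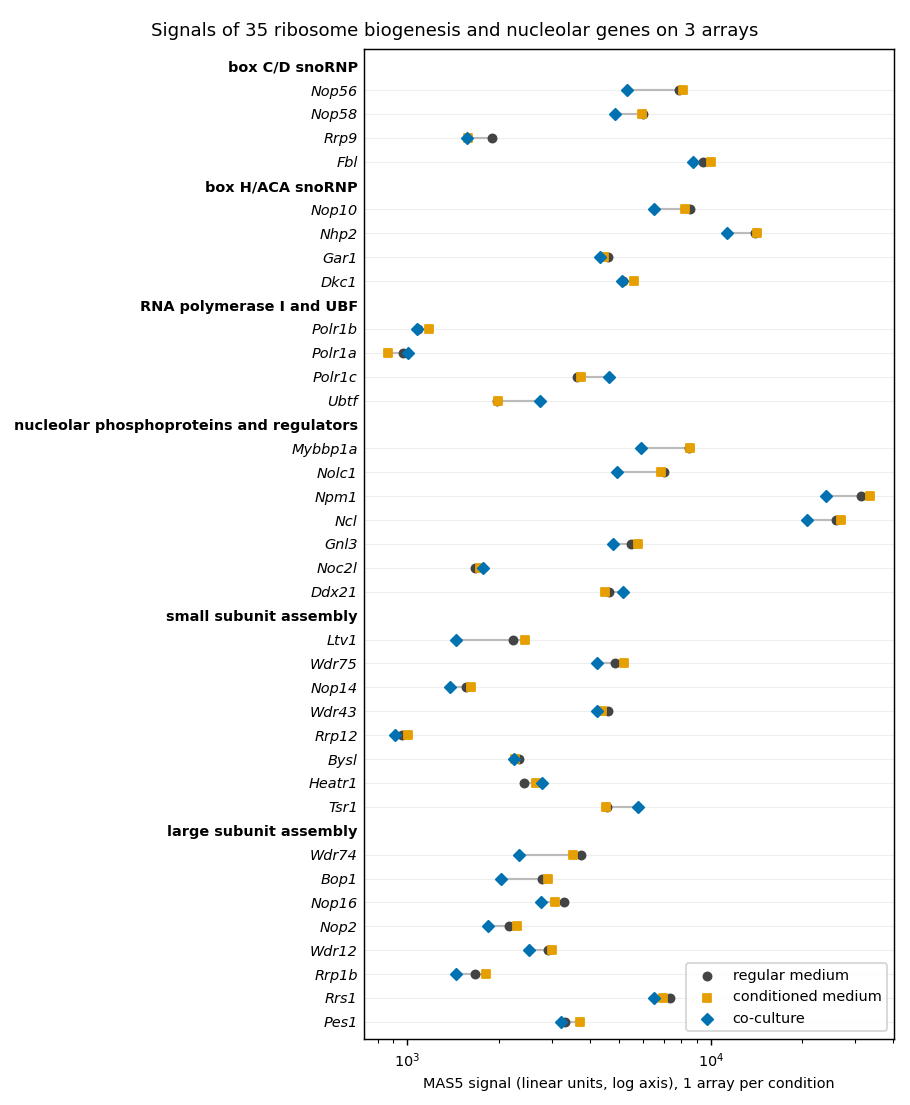
MAS5 signals of the 35 genes on a log axis, grouped by role, with a circle for regular medium, a square for conditioned medium and a diamond for co-culture (1 array each, no error bars). The diamond is leftmost for 28 genes and rightmost for 7, and the circle and square lie close together. Positions are comparable along a row only.

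On their brightest probe sets, the 8 genes for snoRNP proteins all had lower signals in co-culture than in regular medium. Box C/D particles guide ribose methylation of ribosomal RNA, and their core proteins are Nop56, Nop58 and the methyltransferase fibrillarin, encoded by Fbl. Nop56 had signals of 7874 in regular medium, 8106 with conditioned medium and 5317 in co-culture. Co-culture was the low array, 1.48-fold under regular medium and 1.52-fold under conditioned medium. The other bright probe set of Nop56 gave a log2 difference from regular medium of -0.58, against -0.57 for the first. Nop58 had 5966, 5961 and 4829 on the arrays in the same order, a log2 difference of -0.31 between co-culture and regular medium. Fbl differed least of the core proteins, with 9441, 10014 and 8772 and a log2 difference of -0.11 (-0.02 after quantile normalization), and its other probe set had 0.05. Rrp9, which binds the U3 small nucleolar RNA, was low on both arrays with MSC exposure, at 1583 in conditioned medium and 1572 in co-culture against 1904 in regular medium. Its log2 difference of -0.27 in conditioned medium was the furthest from 0 among the 35 genes in that comparison.

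Box H/ACA particles guide pseudouridylation, carried out by dyskerin, the product of Dkc1, with Gar1, Nhp2 and Nop10 as partners. Nop10 had signals of 8563, 8204 and 6527 in regular medium, conditioned medium and co-culture. The co-culture signal was 1.31-fold under regular medium, and the 2 probe sets of Nop10 gave log2 differences of -0.39 and -0.43. Nhp2 had 14001, 14253 and 11306, and its probe sets gave -0.31 and -0.38. Nop10 and Nhp2 were thus low in co-culture on each of their probe sets, and quantile normalization brought the brightest to -0.36 and -0.24. Gar1 and Dkc1 lay nearer to regular medium, with log2 differences of -0.09 and -0.02. Dkc1 was less uniform, since another of its 3 bright probe sets gave -0.54. The median over the 4 box C/D genes was -0.29 and over the 4 box H/ACA genes -0.20.

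The genes of the RNA polymerase I machinery had no direction that held across probe sets. On the brightest probe sets their median log2 difference was 0.21, with 3 of 4 above regular medium. With the median of the bright probe sets of each gene it was -0.02, and with the second-brightest -0.19, with 1 of 4 above regular medium under either choice. Ubtf encodes UBF, which binds ribosomal DNA and holds it ready for transcription. It had signals of 1980 in regular medium, 1991 with conditioned medium and 2735 in co-culture, so co-culture was 1.38-fold above regular medium. A dimmer probe set of Ubtf ran the other way, with 645.4, 695.8 and 444.6, and the direction for this gene therefore depends on the probe set. Polr1c, a subunit that RNA polymerases I and III share, had 3614, 3727 and 4617. Co-culture was 1.28-fold above regular medium, and both of its probe sets were higher, with log2 differences of 0.35 and 0.14. Polr1a, the largest subunit of the enzyme, had 966.1, 865.4 and 1008, a log2 difference of 0.06, but its other bright probe sets gave -0.38 and -0.72. Polr1b, the other large subunit of the catalytic core, had 1082, 1181 and 1080 and counts as lower in co-culture by a difference that rounds to 0.00 on the log2 scale.

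Among the abundant nucleolar proteins and regulators 5 of 7 were lower in co-culture, with a median log2 difference of -0.32, which quantile normalization brought to -0.19. Mybbp1a, a nucleolar protein that binds MYB and takes part in early processing of ribosomal RNA, had signals of 8482, 8579 and 5892 in regular medium, conditioned medium and co-culture. Co-culture was the low array by 1.44-fold against regular medium, and the other probe set gave 1.77-fold. Nolc1, or Nopp140, a chaperone of snoRNPs, had 7013, 6882 and 4912, a log2 difference of -0.51. Its other bright probe sets gave -1.04 and -0.08, so the size of the difference was not settled by the array. Npm1, nucleophosmin, an abundant nucleolar chaperone, had 31268, 33591 and 24000, and its 2 probe sets gave log2 differences of -0.38 and -0.70. Both probe sets were low in co-culture, and quantile normalization brought the first to -0.28.

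Nucleolin, encoded by Ncl, binds ribosomal RNA precursors and had 5 bright probe sets. The brightest gave 25821 in regular medium, 26860 with conditioned medium and 20724 in co-culture. All 5 were lower in co-culture than in regular medium, with log2 differences from -0.85 to -0.29, and quantile normalization brought the brightest from -0.32 to -0.19. In conditioned medium they disagreed, from -0.62 to 0.56 against regular medium, while the brightest gave 0.06. The dimmest had 116.0 in regular medium, 170.5 with conditioned medium and 94.6 in co-culture. It gave both the -0.29 and the 0.56, and it counts as bright through the conditioned-medium array alone. Gnl3, nucleostemin, a nucleolar GTPase of growing cells, had a log2 difference of -0.19 in co-culture. Ddx21, an RNA helicase, and Noc2l, a nucleolar protein that inhibits histone acetyltransferases, were the members of this group above regular medium, with 0.16 and 0.09. Ddx21 had 4631, 4489 and 5159 on its brightest probe set, but 3127, 3145 and 1907 on the other, which was 1.64-fold lower in co-culture. Its direction therefore depends on the probe set, whereas both probe sets of Noc2l were above 0.

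The small-subunit assembly factors had a median log2 difference of -0.10, with 6 of 8 below regular medium. With the median of the bright probe sets it was -0.03 and with the second-brightest 0.01, with 4 of 8 below under either choice. Ltv1, which helps mature and export the small-subunit precursor, had signals of 2226 in regular medium, 2437 with conditioned medium and 1442 in co-culture. Co-culture was low by 1.54-fold against regular medium and by 1.69-fold against conditioned medium, with 1 probe set on the array. Tsr1, which acts on the same late precursor, ran the other way with 4540, 4535 and 5778, a 1.27-fold higher signal in co-culture. Its probe sets gave log2 differences of 0.35 and 0.33. Bysl, another factor of the precursor, lay at -0.06 and Rrp12, needed for export, at -0.08. These late factors thus did not share a direction or size.

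Nop14, Wdr43, Wdr75 and Heatr1 belong to the small-subunit processome, the large particle that forms on the precursor while it is transcribed. Nop14, Wdr43 and Wdr75 lay at -0.17, -0.11 and -0.20, and second probe sets of Wdr43 and Wdr75 lay at 0.38 and 0.39. Heatr1 was the gene with the widest disagreement. Its brightest probe set had 2421, 2649 and 2783 in regular medium, conditioned medium and co-culture, slightly higher in co-culture. Its other bright probe sets had 802.7, 586.1 and 159.8, and 517.7, 551.8 and 333.2. The first of these was 5.02-fold lower in co-culture and the other 1.55-fold lower, so no single direction can be given for Heatr1.

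On their brightest probe sets all 8 large-subunit assembly factors were lower in co-culture, with a median log2 difference of -0.22. Wdr74, which works with the ATPase NVL on the large-subunit precursor, had signals of 3743 in regular medium, 3514 with conditioned medium and 2338 in co-culture. Co-culture was low by 1.6-fold against regular medium and by 1.5-fold against conditioned medium, again with 1 bright probe set. Pes1, Bop1 and Wdr12 form the PeBoW complex, which is needed to process the large-subunit RNA. Bop1 had 2780, 2901 and 2030, a log2 difference of -0.45, Wdr12 had -0.21 and Pes1 had -0.04. Pes1 had 3308, 3698 and 3213 on its brightest probe set and 332.9, 297.6 and 509.4 on another, which was 1.53-fold higher in co-culture. The partners of this complex therefore did not differ by a like amount.

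Nop2, a ribosomal RNA methyltransferase, Nop16, and Rrs1, which helps load the small ribosomal RNA of the large subunit, lay at -0.23, -0.26 and -0.17. Rrp1b, a nucleolar assembly protein, lay at -0.20 on its brightest probe set, with signals of 1666, 1811 and 1446. Its other probe sets were lower in co-culture by 2.20-fold and 1.83-fold. Rrp1b, Nolc1 and Npm1 are described in this detail because of values already seen.

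Taken by probe set, 52 of the 67 bright probe sets (77.6%) were lower in co-culture than in regular medium, beside 49.1% of 17115 bright probe sets of all genes. At least 1.5-fold lower were 12, from 10 genes, and 1 was at least 1.5-fold higher, where 14.9% and 15.5% of all bright probe sets were called. At 2-fold, 3 were lower and none was higher, where the background was 5.49% and 5.37%. Among 24 members with more than 1 bright probe set, 9 had probe sets on both sides of 0 (37.5%), as had 42.6% of 4561 such genes on the array. The probe sets of a member spanned a median of 0.31 on the log2 scale, and those of all genes 0.50. That span within a gene is wider than the median difference of the members, which was -0.19. What sets the probe sets of a gene apart was not tested, and the span says nothing about variation between cultures. Counting members with 1 bright probe set too, all probe sets lay below 0 for 23 genes and above 0 for 3, Tsr1, Polr1c and Noc2l.

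**Figure D2:**
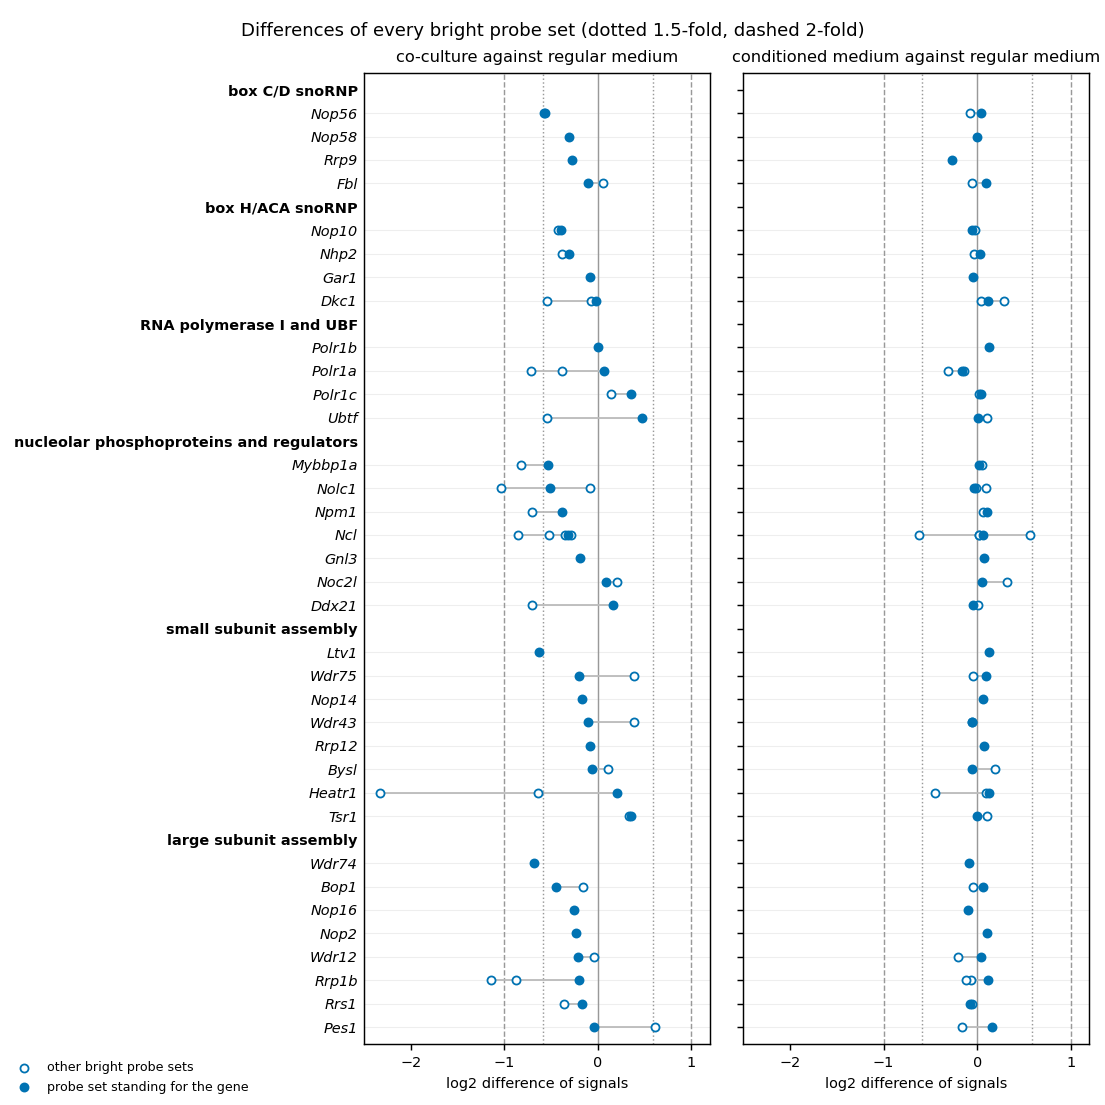
Log2 differences of the 67 bright probe sets by gene, for co-culture (left) and conditioned medium (right) against regular medium. Filled circles are the probe sets that stand for a gene, open circles the others, and grey lines join probe sets of a gene. Most points lie left of 0 on the left panel, with Heatr1 spread from -2.33 to 0.20, and near 0 on the right.

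**Figure D3:**
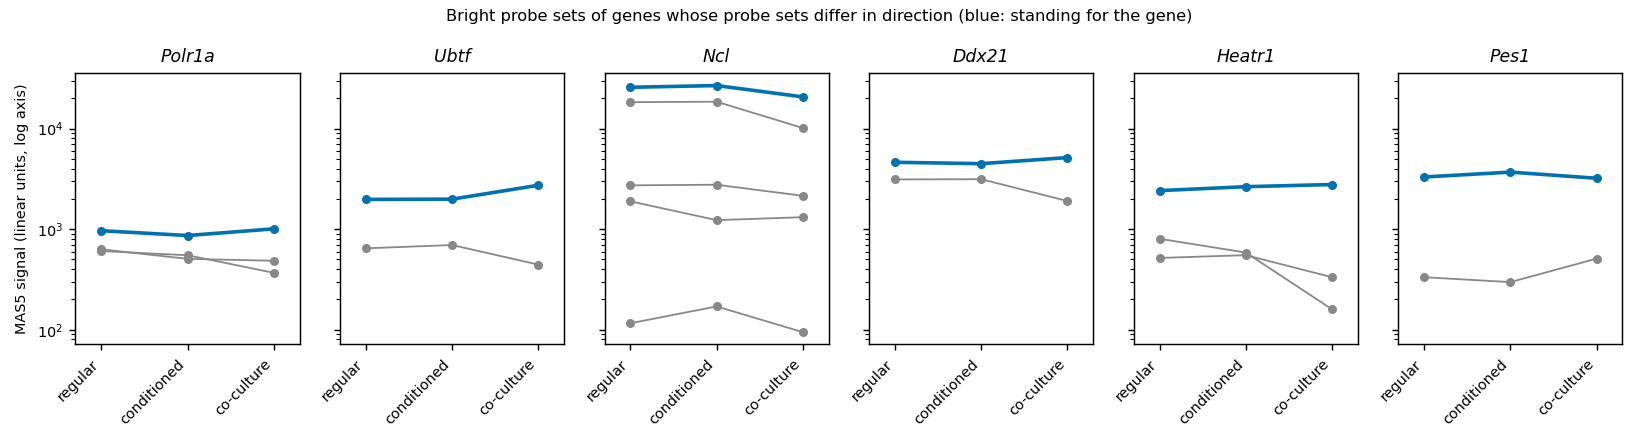
MAS5 signals on a log axis across the 3 conditions for the bright probe sets of Polr1a, Ubtf, Ncl, Ddx21, Heatr1 and Pes1, with 1 line for each probe set and the one that stands for the gene in blue. In Ubtf, Ddx21 and Heatr1 the blue line ends higher in co-culture while the grey lines end lower, and in Pes1 the grey line ends higher.

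The comparison of conditioned with regular medium asked how these genes stood after exposure to MSC products without contact. The median log2 difference of the members was 0.04 (-0.04 to 0.09), beside 0.01 (-0.08 to 0.10) over all measured genes. Signals were lower for 13 members and higher for 22, so 37.1% were lower, beside 46.4% of all measured genes. No member was called at 1.5-fold, where 0.754% of genes were higher and 1.46% lower, or at 2-fold, where 0.109% were higher and 0.306% lower. For 34 of the 35 genes the difference was within 0.2 of 0, as it was for 78.4% of measured genes, and Rrp9 was the exception. On the brightest probe sets the role groups had medians of -0.01 to 0.06. With the second-brightest the medians ran from -0.08 for the large-subunit group, with 7 of 8 lower, to 0.06 for the polymerase I and small-subunit groups. The box C/D group then had -0.07, with 4 of 4 lower.

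Co-culture was also set against conditioned medium. These comparisons share arrays, so they do not support each other. The median log2 difference of the members was -0.20 (-0.33 to -0.03), beside 0.07 over all measured genes, and 28 members were lower (80%, beside 44.1% of genes). Ltv1, Wdr74 and Nop56 were at least 1.5-fold lower and no member was higher, where 9.95% and 16.9% of genes were called. Quantile normalization left 1 member lower, beside 10.2% of genes. The median of the bright probe sets gave 6 (17.1%, beside 11.3%), and the second-brightest probe set gave 10 lower (28.6%, beside 14.2%) and 1 higher. With the brightest probe set none was called at 2-fold, where the background was 2.60% lower and 5.83% higher. The box C/D, box H/ACA and large-subunit groups had all of their members lower, with medians of -0.25, -0.23 and -0.29. With the second-brightest probe sets 3 of 4, 4 of 4 and 6 of 8 were lower. The polymerase I group had a median of 0.26 on its brightest probe sets, but -0.08 with the median of the bright probe sets and -0.10 with the second-brightest. Isolation applied to the co-culture cells alone, so contact, isolation and RNA of other cells cannot be told apart in either comparison with co-culture.

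The other genes of the pathway were taken from 5 lists, with 117 of 119 genes on the array and all 117 measured. Their median log2 difference in co-culture against regular medium was -0.25 (-0.49 to 0.04), and 85 (72.6%) were lower. At least 1.5-fold lower were 22, or 18.8% beside the background of 9.86%, and 4 were at least 1.5-fold higher, or 3.42% beside 16.9%. The list medians were -0.08 over 11 other polymerase I genes, -0.26 over 43 small-subunit factors, -0.16 over 40 large-subunit factors, -0.30 over 10 snoRNP assembly genes and -0.22 over 13 exosome genes. In conditioned medium the median over the 117 was 0.03. At 1.5-fold 1 gene (0.855%) was called lower, beside 1.46% of all genes, and none was called higher, beside 0.754%. The gene was Exosc1, 1.52-fold lower on the brightest of its 3 bright probe sets.

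In the polymerase I list, Polr1e and Polr1d, subunits of the enzyme, were 1.81-fold and 1.64-fold lower in co-culture than in regular medium. Taf1d, of the promoter selectivity factor, was 1.5-fold lower, although its 7 bright probe sets ran from -1.42 to 0.40. Taf1a, of the same factor, was 2.02-fold higher, with signals of 264.4, 352.9 and 535.2. The direction was thus mixed among these genes too.

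Among small-subunit factors, 6 (14.0%) were at least 1.5-fold lower and 1 (2.33%) was higher, beside 9.86% and 16.9% of all genes. Rrp7a had 1174 in regular medium, 1257 with conditioned medium and 530.7 in co-culture, 2.21-fold lower. The genes of the processome proteins Utp6 and Utp3 were 1.86-fold and 1.73-fold lower, although the 3 bright probe sets of Utp6 ran from -0.9 to -0.04. The kinase gene Riok2 was 2.00-fold higher, with another probe set at -0.38. Among large-subunit factors, 9 (22.5%) were at least 1.5-fold lower and 2 (5.0%) higher, beside the same shares of all genes. Ftsj3, a methyltransferase, had 2560, 2207 and 1010 and was 2.53-fold lower, Rsl1d1 was 2.34-fold lower and the helicase gene Ddx27 1.98-fold lower. Surf6, a nucleolar matrix protein gene, was 2.20-fold higher with 550.7, 554.6 and 1212, and Spata5, an ATPase gene, was 1.63-fold higher.

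In the snoRNP assembly list, Znhit3 and the ATPase gene Ruvbl2 were 1.85-fold and 1.67-fold lower. In the exosome, which trims ribosomal RNA precursors, Exosc8 and Exosc3 were 1.78-fold and 1.54-fold lower, but another probe set of Exosc8 lay at 1.16. On the brightest probe sets the share of genes at least 1.5-fold lower was thus 18.8% over these lists and 5.71% in the set of 35. In the set of 35 it was 14.3% with the median of the bright probe sets and 25.7% with the second-brightest. No such share is given for the lists, and the difference between them and the set was not tested.

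The MYC network was described because MYC is a known activator of ribosome biogenesis. Myc had signals of 6042 in regular medium, 6114 with conditioned medium and 9152 in co-culture, 1.51-fold higher in co-culture, on 1 bright probe set. Its direction was thus opposite to that of most of the 35 genes, and a link between Myc and these genes was not tested. Max, the partner of MYC, was 1.8-fold higher, with 226.6, 312.0 and 408.2. Mga was 1.78-fold higher, although its probe sets ran from -0.84 to 0.83. Mxd3, a repressor that competes for MAX, was 3.02-fold lower with 392.9, 337.8 and 129.9, and Mlx, a related factor, was 2.52-fold lower, its other probe set lying at -0.15. Of 8 measured genes in this list 3 were called higher (37.5%) and 2 lower (25%) at 1.5-fold, beside 16.9% and 9.86% of all genes.

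Among related gene sets, the 42 measured cytosolic ribosomal protein genes had a median log2 difference of -0.12 (-0.19 to -0.03) in co-culture against regular medium. Of them 36 were lower (85.7%), and none was called at 1.5-fold, where 9.86% of all genes were called lower and 16.9% higher. Quantile normalization brought their median to -0.01 with 22 of 42 lower, so their direction depends on the scaling. The 25 measured DNA replication genes had -0.59 (-0.88 to -0.24), with 22 lower (88.0%). Of these genes 14 were called at least 1.5-fold lower, or 56.0% beside 9.86% of all genes. The median of the 35 genes, -0.19, lay between these, and no test of the differences between sets was possible with 1 array per group. All 35 reached the 80th percentile of signal, 703.6, and the 6009 genes of the array that did so had a median of 0.04 with 46.1% lower.

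**Figure D4:**
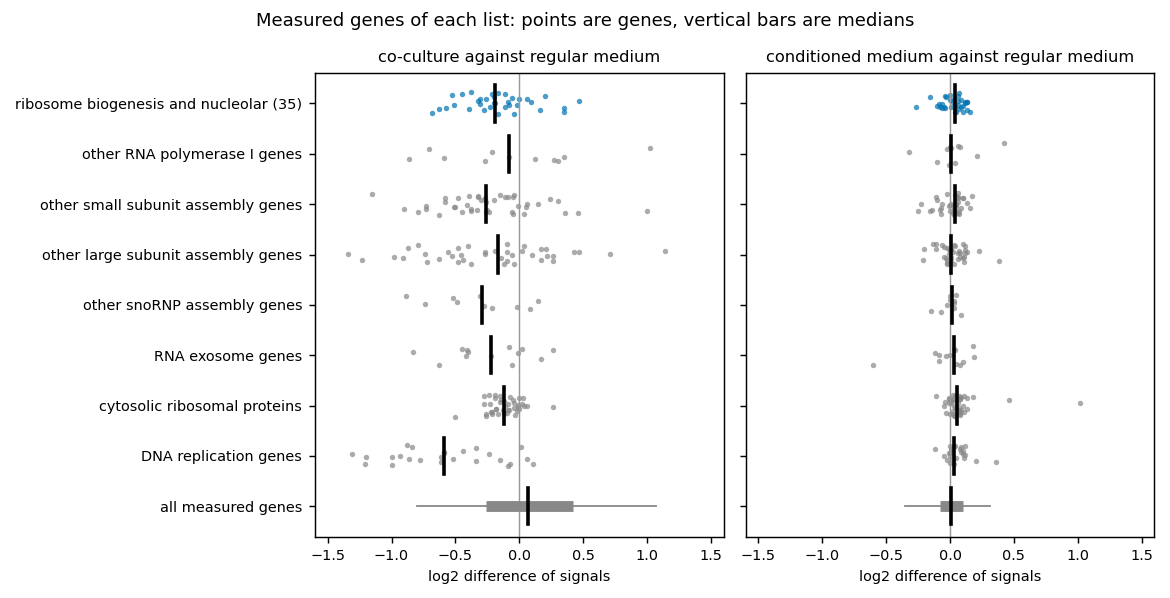
Log2 differences by list for co-culture (left) and conditioned medium (right) against regular medium, with a point for each measured gene, a vertical bar at the list median, and for all measured genes the interquartile range (thick) and the 5th to 95th percentile (thin). On the left the 35 genes have their median at -0.19, ribosomal proteins at -0.12 (-0.01 after quantile normalization), DNA replication genes at -0.59 and all measured genes at 0.07. On the right every median is near 0.

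Promoter windows of 300 bases, from 250 before to 50 after an annotated start, were read from RefSeq sequences of build GRCm38.p6 for 30 of the 35 genes, which had 39 windows. They were searched for CACGTG, the E-box that MYC and MAX bind, which reads the same on both strands, and for CCGGAAG or its reverse complement CTTCCGG, an ETS-type motif. CACGTG cannot overlap the other motif, whose own orientations can overlap each other, and a window counted once for each motif. CACGTG was in 6 of 39 member windows (15.4%), beside 7.15% of all 32851 windows and 8.89% of 16689 windows of protein-coding genes with a probe set. The ETS-type motif was in 11 of 39 (28.2%), beside 8.86% and 13.4%. The median GC content was 59.3% in member windows, 52.7% in all windows and 58.7% in those of protein-coding genes with a probe set. A match is a description of letters and not a binding site. The 6 genes with CACGTG were Ltv1, Mybbp1a, Nop2, Pes1, Tsr1 and Wdr43, whose log2 differences in co-culture ran from -0.63 for Ltv1 to 0.35 for Tsr1. In Nop2 it began 60 bases before the start, and in the other 5 it lay from the start on.

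Stretches of 120 bases just before the start are shown for 4 genes described above, 5′ to 3′ in the direction of transcription, with the motifs in capitals. They show Ltv1, a gene 1.54-fold lower in co-culture, with 2 ETS-type matches, Heatr1, whose probe sets disagree, with 1, and Nop10 and Mybbp1a with none. The stretch of Ltv1 is chr10:13193138-13193257 on the minus strand, that of Heatr1 chr13:12395255-12395374, that of Nop10 chr2:112261806-112261925 and that of Mybbp1a chr11:72441207-72441326, all on the plus strand.
Ltv1: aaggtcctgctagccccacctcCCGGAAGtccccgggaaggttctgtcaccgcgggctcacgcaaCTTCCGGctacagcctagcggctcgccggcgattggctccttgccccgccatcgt
Heatr1: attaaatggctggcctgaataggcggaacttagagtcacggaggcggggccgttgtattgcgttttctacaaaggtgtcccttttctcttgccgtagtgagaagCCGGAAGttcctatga
Nop10: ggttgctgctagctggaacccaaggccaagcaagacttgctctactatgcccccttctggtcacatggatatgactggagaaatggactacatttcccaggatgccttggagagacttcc
Mybbp1a: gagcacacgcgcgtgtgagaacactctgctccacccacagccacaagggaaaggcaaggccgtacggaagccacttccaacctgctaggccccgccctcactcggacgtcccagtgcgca
The matches of Ltv1 began 98 and 55 bases before the start and that of Heatr1 16 bases before it. Genes with an ETS-type match stood on both sides of regular medium in co-culture, with Tsr1 and Polr1c above it and Wdr74 and Nolc1 below it.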

How the data were processed

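Biotin-labelled RNA from 3 cultures of 4T1 cells was measured on 3 arrays, 1 per condition, with groups taken from the labels. The authors deposited intensity values on a linear scale, for which the submitters' processing notes name MAS5. Which version ran, and to what target, is not given there. These intensity values of 45037 probe sets were used as deposited. Of these, 34945 had 1 gene symbol in the platform annotation, 932 several and 9160 none, and symbols were updated by gene ID for 34741, giving 18193 genes. Signals were floored at 42.4 before log2 was taken. The brightest probe set by mean signal stood for a gene. A call was a difference of at least 1.5-fold or 2-fold with the brighter of the 2 signals at 149.3 or more. No test was run, since each group had 1 array, and this number limits the precision.

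The members and lists were chosen with earlier results of these data known. Named members were those at least 1.5-fold apart in any comparison, the one furthest from 0 in each role group, and those with bright probe sets that opposed each other, 1 of them by at least 1.5-fold; the other pathway genes named are the 3 furthest from 0 in each direction of each list at 1.5-fold or more, and Myc. Other members are given by their values. Genes named as having all probe sets on 1 side, and those with motifs, follow from counts. A planned look at protein sequences was not analysed here. Alternatives covered scaling, floor, filter and choice of probe set. Python 3.11.15, NumPy 2.4.6, pandas 2.3.3 and Matplotlib 3.10.9 were used.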

Additional observations from a re-analysis of the deposited data

How the results depend on the processing

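Each of 17 results was recomputed under 9 alternatives. The 4 that changed the floor or the filter could not move a member value, since all 35 genes lay above every limit tried. Of the 85 values under the other 5, 76 stayed within 0.1 on the log2 scale (medians) or within 1.5 times (counts). The member median for co-culture against regular medium ran from -0.28 to -0.18, that against conditioned medium from -0.27 to -0.18, and that of conditioned against regular medium from -0.01 to 0.04. Between 26 and 28 of 35 members had their lowest signal in co-culture, and 23 of 30 (76.7%) did without probe sets marked _s_at, _x_at or _a_at, which left 30 members. The counts of large differences depended on the probe set. The second-brightest bright probe set of a gene was put in place of the brightest, where there was one. Against regular medium 9 members (25.7%) were then at least 1.5-fold lower in co-culture and 1 (2.86%) higher. At least 2-fold lower were 3 (8.57%), where 14.4%, 16.3% and 5.24% of all genes were called in the same order. Against conditioned medium the same choice gave 10 lower and 1 higher at 1.5-fold, and 3 lower at 2-fold, beside 14.2%, 16.8% and 5.02%. With the median of the bright probe sets, 5 members (14.3%) were 1.5-fold lower against regular medium and 6 (17.1%) against conditioned medium, beside 11.1% and 11.3% of all genes. Quantile normalization left 1 member 1.5-fold lower against conditioned medium, beside 10.2%. No paired analysis was possible because each group had 1 array. With 1 array per condition no variation between cultures was measured, and members were all well above the floor, so low signal did not limit them.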
